A study of Mus musculus with 55 samples.

Results

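Bicuculline blocks GABA-A receptors, so that excitatory synapses drive the network without inhibition, and 4-aminopyridine blocks voltage-gated potassium channels and prolongs release of transmitter. Synapses form and mature during weeks in culture, and dependence of the RNA response on them was not tested. The comparison described here asks whether the RNA response to both drugs together (4APBic in the labels) differed between young and mature neurons. The comparison and the gene lists below were chosen with earlier results of these data known. The comparison rests on 11 of the 55 samples of the series, picked by their labels, in 4 groups. These were 7DIV (days in vitro) cultures at rest (n = 3), 7DIV cultures with 50 μM bicuculline and 2.5 mM 4-aminopyridine for 180 min (n = 3), 23DIV cultures at rest (n = 3) and 23DIV cultures with both drugs for 180 min (n = 2). The quantity of interest was the log2 fold change at 23DIV minus that at 7DIV, called the stage difference in the response below, and it is positive where the gene rose more or fell less at 23DIV.

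All groups were primary forebrain cultures (cortex and hippocampus) from CD1 mouse embryos of mixed sex, without genetic change and without silencing before stimulation. The study pools cultures of about this age under the name 21DIV, and the labels give 23DIV, which is used here. RNA of whole wells was sequenced from 3′ ends by CEL-Seq2. The 11 libraries held between 1659170 and 9251119 counts on genes, from 1659170 to 3663557 at 7DIV and from 3688478 to 9251119 at 23DIV. The sources used here do not say whether replicates came from separate dissections, so the spread between them may be technical. Replicates of each group differed by more than the sampling noise of independent reads, since chi-square divided by its degrees of freedom was 4.00 to 4.85 for pairs at 7DIV and 7.85 for the stimulated pair at 23DIV. Replicate 1 of the resting 23DIV group stood apart, at 14.4 and 13.9 against replicates 2 and 3, which gave 8.57 between them. In several genes below its value is the one nearest to the stimulated libraries, as for Nrgn, Scg3 and Adm, and the number of genes called below was highest with it left out. The 23DIV stimulated libraries, replicates 2 and 3, carry a plate-like letter in their descriptions that no other library of the experiment has. The labels do not explain it, and it cannot be told apart from the stimulus at that age. The letters also differed between the ages, A or B at 7DIV and C, D or E at 23DIV, so they cannot be told apart from age. Only resting 23DIV replicate 3 carried D.

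Synaptic activity raises calcium in neurons, and calcium signals switch on early-response genes within minutes. Many of these encode transcription factors (Fos, Jun, Egr, Nr4a and Npas4 among them), which then act on a later wave of genes for secreted peptides, synaptic proteins and metabolism. Cultures of this kind also hold glia and progenitors, whose share grows with time, so cell type markers were followed along with the neuronal genes. In whole wells, fewer cells of a type and less RNA per cell cannot be told apart.

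Of 11741 genes tested, 580 had a response that differed between the stages (4.94% of genes tested, edgeR quasi-likelihood test, adjusted p under 0.05). The stage difference was positive for 303 of them (2.58%) and negative for 277 (2.36%). It reached at least 4-fold for 79 genes in the positive and 45 in the negative direction. Early-response transcription factors such as Fosb, Atf3, Npas4 and Fos were among the 12 most positive named genes, and the glial genes Gfap and Kcnj10 were among the 12 most negative. The number of calls depended on single libraries. It was 138 without 23DIV stimulated replicate 2, 322, 342 and 896 without 23DIV basal replicates 3, 2 and 1, 365 without 7DIV stimulated replicate 3, 382 without 7DIV basal replicate 2, and between 413 and 521 without each of the other 5 libraries. In every one of these 11 fits 105 of the 580 genes were called, 66 positive and 39 negative.

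The responses inside the comparison were unequal in size. At 23DIV 1669 genes responded by at least 1.5-fold (14.2% of genes tested), with 868 higher (7.39%) and 801 lower (6.82%). That count was 672 without 23DIV stimulated replicate 2, and 1072 and 1090 without 23DIV basal replicates 2 and 3. At 7DIV edgeR's quasi-likelihood test called 0 genes (0%), with 701 genes at an unadjusted p under 0.05 (5.97%) and a lowest adjusted p of 0.542. DESeq2 called 0 genes at 7DIV and edgeR's likelihood ratio test called 2. Among the 580 genes, 506 were called in the 23DIV response and not in that of 7DIV, 267 of them higher and 239 lower, and 74 were called at neither stage. The median response of the positive genes was 1.21 at 23DIV and −0.13 at 7DIV (log2), and that of the negative genes was −1.06 and 0.14. In 544 of the 580 genes the absolute log2 fold change was larger at 23DIV.

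**Figure D1:**
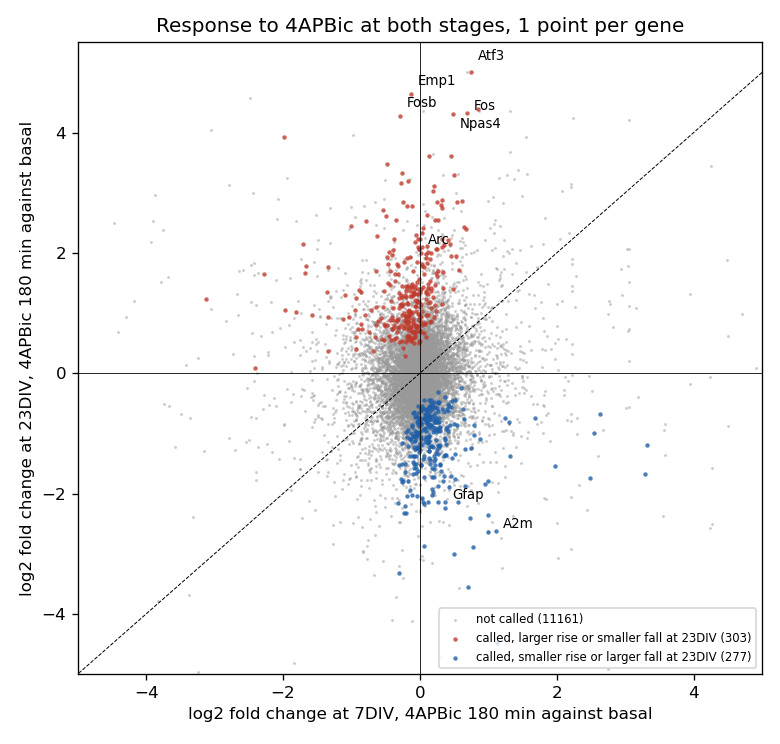
Log2 fold change after 180 min of 4APBic at 7DIV (x axis) and at 23DIV (y axis), with 1 point per gene tested. Red and blue points are the 303 and 277 genes with a positive or negative stage difference, grey points were not called, the dashed line marks equal responses, and 28 genes lie outside the axes. Coloured points spread far along the y axis and mostly lie near 0 on the x axis.

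Fos, the partner of Jun proteins in the AP-1 complex (chr12:85473890-85477274, mm10, with gene positions from RefSeq), measured 64.4, 71.2 and 77.2 CPM (counts scaled to one common library total) in resting 7DIV libraries and 103, 144 and 97.1 CPM after stimulation. At 23DIV it measured 21.6, 11.3 and 12.1 CPM at rest and 310 and 287 CPM after stimulation. Resting 23DIV libraries thus had the lowest values and stimulated 23DIV libraries the highest, with no overlap between any of the 4 groups. Fos rose 20.1-fold at 23DIV, and its ratio at 7DIV was 1.61. The stage difference was 3.64 ± 0.41 (log2, SE, edgeR adjusted p = 5.42e-06), and it was called in 11 of 11 fits with a library left out.

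Npas4, a neuronal transcription factor that activity induces and that controls inhibitory synapse number (chr19:4984353-5003439), went from 106, 63.3 and 177 CPM at rest to 2260 and 2349 CPM at 23DIV. At 7DIV its levels were 287, 473 and 443 CPM at rest and 557, 663 and 466 CPM after stimulation, so the groups overlapped at that age. The stage difference was 3.82 ± 0.45 (log2, SE, edgeR adjusted p = 5.42e-06). Fosb (chr7:19302696-19310118) rose from 13.8, 9.66 and 13.9 CPM to 275 and 213 CPM at 23DIV, whereas at 7DIV it measured 175, 57.7 and 46.9 CPM at rest and 80.3, 90.9 and 55.7 CPM after stimulation. Its stage difference of 4.56 ± 0.53 was the second largest among the named genes. Junb, another AP-1 component (chr8:84976909-84978748), rose from 26.1, 14.7 and 25.1 CPM to 300 and 244 CPM at 23DIV. It stood at 42.2, 31.9 and 27.6 CPM at rest and 47.2, 49.7 and 41.1 CPM after stimulation at 7DIV, groups that overlapped. Its difference of 3.16 ± 0.33 (log2, SE) had the lowest p of all genes (edgeR adjusted p = 1.78e-06).

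These genes differed in what lay behind the stage difference. Fos, Fosb and Npas4 were lower at 23DIV than at 7DIV at rest, with log2 ratios of −2.26, −2.87 and −1.79, and higher after stimulation, with log2 ratios of 1.38, 1.69 and 2.04. Jun, the main partner of Fos proteins (chr4:95049036-95052222), had overlapping resting levels, with 184, 134 and 198 CPM at 7DIV and 223, 159 and 196 CPM at 23DIV, and an edgeR adjusted p of 0.631 between them. After stimulation it measured 192, 222 and 186 CPM at 7DIV and 1827 and 1508 CPM at 23DIV. Arc, which regulates AMPA receptor traffic at synapses (chr15:74669081-74672570), was higher at 23DIV already at rest, at 75.8, 80.7 and 98.8 CPM against 20.4, 30.1 and 15.4 CPM. Stimulation gave 421 and 308 CPM of Arc at 23DIV and 25.6, 20 and 18.6 CPM at 7DIV, a stage difference of 2.07 ± 0.56 (log2, SE, edgeR adjusted p = 0.0274) that was called in 5 of the 11 fits with a library left out. Nr4a2, an orphan nuclear receptor, had overlapping levels after stimulation at both ages, at 83.1 and 62.7 CPM at 23DIV and 80, 83.8 and 73.5 CPM at 7DIV, from resting values of 7.26, 6.26 and 8.41 CPM and of 68.2, 40.5 and 57.4 CPM. Its stage difference of 2.80 ± 0.42 (log2, SE, edgeR adjusted p = 0.000203) went with a resting level that was lower at 23DIV by the test, while the comparison of stimulated cultures did not pass (edgeR adjusted p = 0.783).

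**Figure D2:**
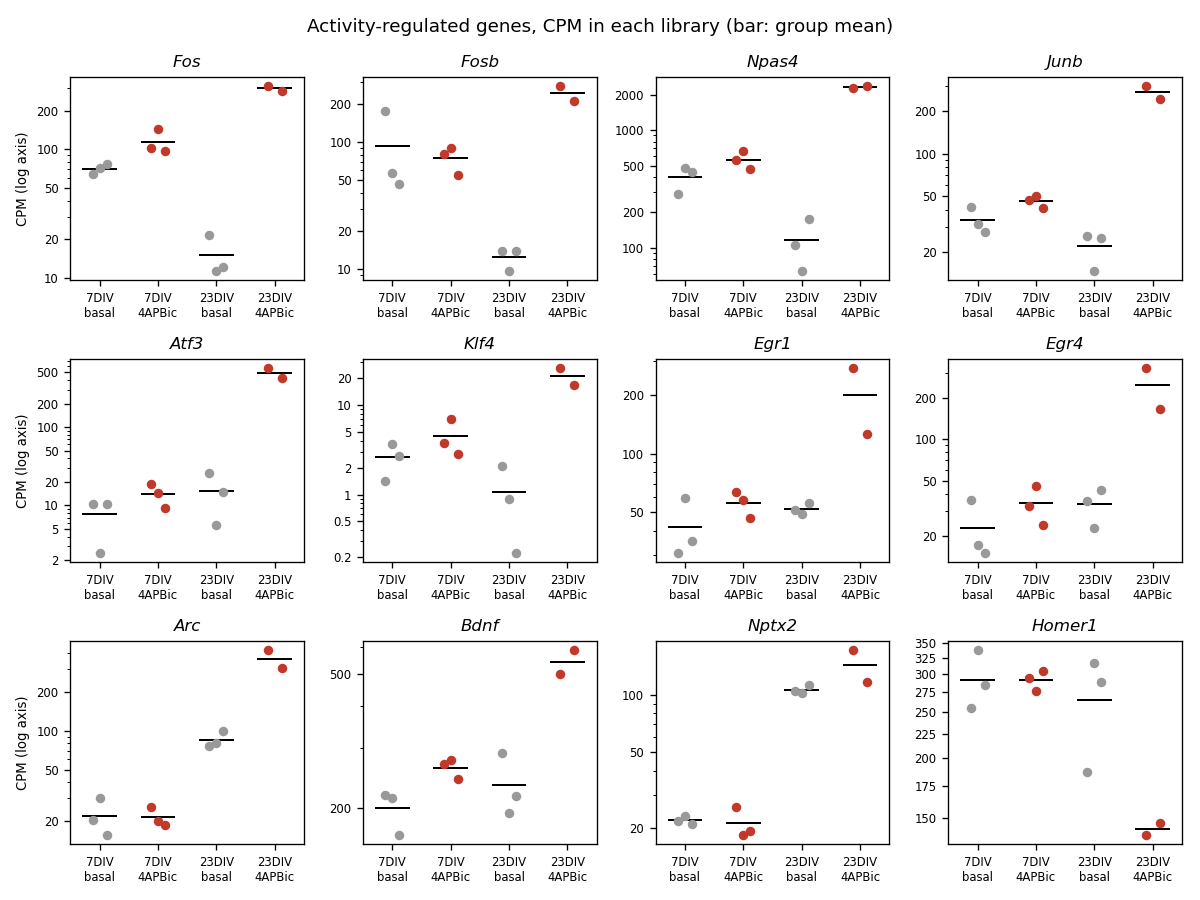
CPM of 12 activity-regulated genes in each of the 11 libraries, on log axes, with basal libraries in grey, stimulated libraries in red and a bar at each group mean. Stimulated 23DIV libraries are the highest for Fos, Fosb, Npas4, Junb, Atf3, Klf4, Egr1, Egr4, Arc, Bdnf and Nptx2, whereas Homer1 is lowest there.

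Over the whole list of early-response transcription factors, 32 of 35 genes were tested, and 21 were called with a positive and 0 with a negative stage difference. Called or not, differences were above 0 for 28 of the 32 and below 0 for 4. The median of the 32 was 1.71 (log2), beside −0.02 over all genes tested. At 23DIV 26 of the 32 rose by the test and 3 fell, namely Srf, Klf10 and Nab2. At rest 13 of the list were lower and 3 higher at 23DIV than at 7DIV, and after stimulation 4 were lower and 18 higher. Atf3, a stress- and activity-induced repressor of the ATF family (chr1:191170296-191183333), was the most strongly induced of the named genes at 23DIV, from 25.8, 5.54 and 14.9 CPM to 562 and 427 CPM. It measured 10.4, 2.45 and 10.6 CPM at rest and 18.8, 14.4 and 9.28 CPM after stimulation at 7DIV, and its stage difference was 4.25 ± 0.92 (log2, SE, edgeR adjusted p = 0.00716). Smaller positive differences were measured for Egr1 (1.49), Egr4 (2.25), Nr4a1 (1.41), Nr4a3 (1.82), Maff (2.56), Btg2 (2.35) and Tiparp (1.90). The tested members without a call included Egr3 (−0.38 ± 0.56), Crem (0.53 ± 0.29) and Csrnp1 (2.12 ± 0.64, edgeR adjusted p = 0.0516). The count of 21 fell to 8, with 1 negative call, without 23DIV stimulated replicate 2, and to 13 without 23DIV basal replicate 2. The medians of the list with each library left out ran from 1.54 to 1.88.

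Effector genes, which act at synapses or outside the cell, followed in part. Of 30 tested, 8 were called with a positive and 0 with a negative stage difference. The median of the 30 was 1.13, and 16 rose at 23DIV. Inhba, a subunit of activin, rose from 6.23, 3.4 and 2.1 CPM to 69.3 and 23.1 CPM at 23DIV, and measured 20.8, 40.5 and 18.7 CPM at rest and 26, 36.2 and 22.5 CPM after stimulation at 7DIV. The stimulated libraries did not overlap the resting ones at 23DIV but lay far from each other. Rgs2, an inhibitor of G protein signalling, had a difference of 1.81 ± 0.34, Gadd45b one of 2.90 ± 0.67, Gadd45g one of 1.80 ± 0.51, and Syt4, a synaptotagmin of dense-core vesicles, one of 1.2 ± 0.28. The list's count was 14 positive and 1 negative in a fit on the compared groups alone and 15 and 1 without a filter. It was 5 and 0 with counts summed over transcripts, and 2 and 0 with the replicate number as a block. The positive count was 5 without 23DIV basal replicate 3, and between 6 and 9 without each other basal or 7DIV library. It fell furthest without 23DIV stimulated replicate 2, which leaves 1 library in that group.

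Several well-known activity genes had no call. Bdnf, the neurotrophin, measured 217, 214 and 166 CPM at rest and 269, 276 and 244 CPM after stimulation at 7DIV. At 23DIV it rose 2.32-fold, from 291, 193 and 216 CPM to 497 and 585 CPM, and the stage difference was 0.81 ± 0.34 (log2, SE, edgeR adjusted p = 0.171). Stimulated and resting libraries of Bdnf did not overlap at either age. Ptgs2, the inducible cyclooxygenase, rose from 25.3, 29.7 and 41.6 CPM to 255 and 167 CPM at 23DIV and lay between 2.14 and 5.13 CPM in all 7DIV libraries, too few counts for a precise ratio at that age (difference 2.63 ± 0.88, edgeR adjusted p = 0.0761). Nptx2, a synaptic pentraxin, passed neither the response test at 23DIV nor that of the difference (0.49 ± 0.44). Homer1, a postsynaptic scaffold whose short activity-induced form was not separated here, was lower after stimulation at 23DIV, with 138 and 147 CPM against 188, 317 and 289 CPM, and its difference was −0.90 ± 0.28 (edgeR adjusted p = 0.0540).

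Inhibitors of MAP kinase signalling had a positive call for 3 of 17 tested. Differences were above 0 for 8 of the 17 and below 0 for 9, with a median of −0.17. Dusp1, a phosphatase of MAP kinases, rose from 25.9, 24.1 and 30.7 CPM to 187 and 178 CPM at 23DIV and measured 32.7, 54.6 and 57.7 CPM at rest and 65.3, 67.5 and 50.3 CPM after stimulation at 7DIV. Its difference was 2.42 ± 0.43 (log2, SE, edgeR adjusted p = 0.0011), called in all 11 fits with a library left out. Dusp4 (2.29 ± 0.64) and Dusp14 (1.38 ± 0.33) were the others. The list held 1 call without 23DIV stimulated replicate 2 or 7DIV basal replicate 2.

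Neuropeptide and granin genes, whose products are packed into dense-core vesicles, had 4 positive and 0 negative calls among 20 tested and a median of 0.72. Scg2, secretogranin II (chr1:79434366-79440026), stood at 509, 442 and 495 CPM at rest and 544, 455 and 483 CPM after stimulation at 7DIV. At 23DIV it rose from 823, 590 and 557 CPM to 2239 and 2395 CPM, and the stage difference was 1.78 ± 0.24 (log2, SE, edgeR adjusted p = 5.22e-05). Stimulated 23DIV libraries lay far above all others. Vgf, a granin-like precursor, rose 2.67-fold at 23DIV from 3388, 2064 and 2222 CPM to 7333 and 6313 CPM, with 1447, 1125 and 1176 CPM at rest and 1310, 1539 and 1346 CPM after stimulation at 7DIV. The others were Scg3 (1.99 ± 0.37), which binds granins, and Adcyap1 (1.84 ± 0.46), which encodes the peptide PACAP. Without a filter the list held 7 positive calls.

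The cAMP response element is the site of CREB, the factor that calcium and cAMP signals act on, so sequences just upstream of the start are shown for 4 positive genes described here that hold it, from RefSeq promoters of build GRCm38.p6. Capitals mark the element, and sequences run 5′ to 3′ along the gene.
Scg2, chr1:79440047-79440134, minus strand: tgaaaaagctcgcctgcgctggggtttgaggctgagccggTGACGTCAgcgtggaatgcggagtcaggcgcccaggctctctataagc
Dusp1, chr17:26508568-26508655, minus strand: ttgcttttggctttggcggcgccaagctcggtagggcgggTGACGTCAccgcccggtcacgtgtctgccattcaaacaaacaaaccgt
Btg2, chr1:134079274-134079361, minus strand: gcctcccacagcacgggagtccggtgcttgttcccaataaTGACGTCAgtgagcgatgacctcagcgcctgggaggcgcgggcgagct
Maff, chr15:79347451-79347519, plus strand: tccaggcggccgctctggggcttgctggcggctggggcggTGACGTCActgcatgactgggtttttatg
The element starts 68, 143, 166 and 29 bases before the gene start in these genes. Only 237 of the 303 positive genes (78.2%), 212 of the 277 negative genes (76.5%) and 9378 of all tested genes (79.9%) had a promoter in the table, so a comparison between the groups is void. As a description, TGACGTCA on either strand, within 250 bases before to 50 after the start, was in 14 positive (5.91%) and 4 negative promoters (1.89%), and in 366 of all (3.90%). TGANTCA, the AP-1 letters, was in 4.22% of positive, 5.19% of negative and 5.76% of all promoters. CACGTG, an E-box, was in 14.8% of positive, 8.02% of negative and 11.996% of all promoters (1125 of all). The serum response element searched was in 0 positive, 0 negative and 3 of all promoters. TGACGTCA contains none of the other motifs.

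Heat shock, survival and fuel genes were also among the positive calls. Hspa1b, an inducible HSP70 chaperone that shares reads with its near-identical copy Hspa1a, rose from 22.5, 28.1 and 29.1 CPM to 120 and 89.6 CPM at 23DIV, and lay between 28.2 and 32.5 CPM in all 7DIV libraries. Together with Dnajb1 (1.58 ± 0.29) it made 2 of 13 chaperones tested. Of 17 genes of the p53 and apoptosis list, 5 had a positive call and 0 a negative one, with a median of 0.53. Among them were Bcl2l11, a BH3-only activator of apoptosis (2.10 ± 0.53), Cdkn1a, a cell cycle inhibitor (1.69 ± 0.39), Ccng1, a cyclin that p53 induces (1.52 ± 0.29), and Mcl1, which protects from apoptosis (1.2 ± 0.32). The p53 and apoptosis list held 2 calls without 23DIV stimulated replicate 2 and 3 without 23DIV basal replicate 3, 7DIV stimulated replicate 1 or 3, or 7DIV basal replicate 2. Without 23DIV stimulated replicate 2 the chaperones held 1.

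In the list of glycolysis and hypoxia-response genes, 8 of 27 had a positive and 1 a negative call, with a median difference of 0.50. Adm, adrenomedullin, reached 136 and 136 CPM after stimulation at 23DIV from 26.1, 4.47 and 6.64 CPM, with between 0.474 and 3.07 CPM in 7DIV libraries. Its difference of 3.96 ± 1.14 was called in only 2 of the 11 fits with a library left out. Slc2a1, the glucose transporter GLUT1, rose from 38.4, 51.7 and 61.9 CPM to 146 and 134 CPM at 23DIV and measured 11.4, 5.52 and 12.2 CPM at rest and 5.81, 11.7 and 4.64 CPM after stimulation at 7DIV (difference 1.91 ± 0.41, edgeR adjusted p = 0.0067). Slc2a3, the neuronal glucose transporter GLUT3, rose 3.16-fold at 23DIV (difference 1.43 ± 0.27). Pfkfb3, Pfkp, Eno2, Ldha and Ankrd37 were the other positive members, and Aldoc, an astrocyte aldolase, the negative one. The count of 8 was 5 with thinned counts, fell to 3 without 23DIV stimulated replicate 3 and to 4 without replicate 2 of that group or 7DIV stimulated replicate 3, and it was 5 without 23DIV basal replicate 2, 7DIV stimulated replicate 1 or 7DIV basal replicate 2. Genes of the ATF4 and endoplasmic reticulum stress response differed from this pattern. At 23DIV 15 of 26 rose. Stage differences were above 0 for 19 of the 26, but only that of Hsp90b1 was called (0.83 ± 0.21). The median response was 0.71 at 23DIV and 0.35 at 7DIV.

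**Figure D3:**
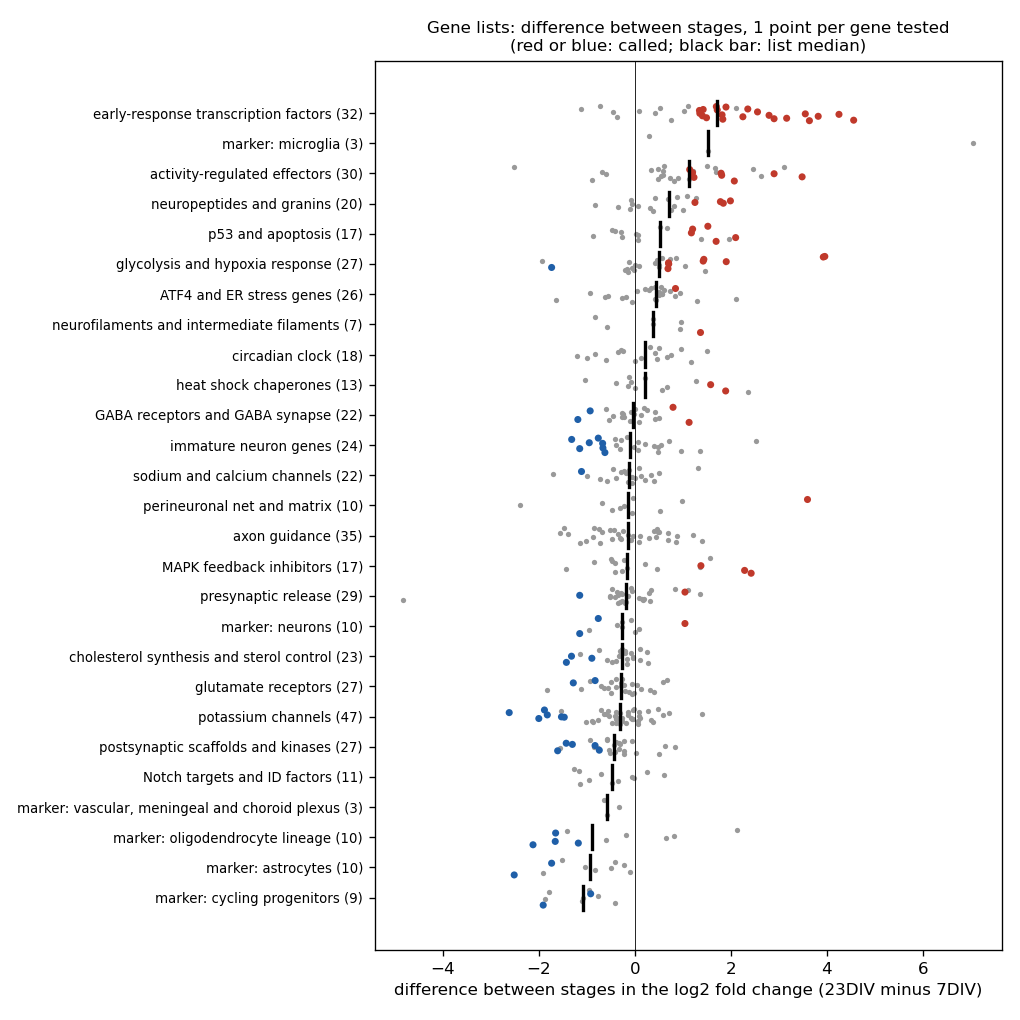
Stage difference in the response (x axis, log2, 23DIV minus 7DIV) of the tested members of each of 27 gene lists, ordered by list median (black bar), with the number tested in brackets. Red and blue points passed the test. Early-response transcription factors have the highest median (1.71) and 21 red points, and the lists of astrocyte, oligodendrocyte lineage and cycling progenitor markers lie at the bottom.

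Lists of synaptic proteins and ion channels had medians from −0.04 (GABA genes) to −0.42 (postsynaptic scaffolds and kinases), beside −0.02 over all genes tested. Differences were below 0 for 35 of 47 potassium channels, 23 of 27 postsynaptic, 13 of 22 GABA and 18 of 29 presynaptic genes. Over all genes 6055 of 11741 were below 0, and 2.36% were called negative. Potassium channels had 6 negative and 0 positive calls among 47 tested (median −0.31), and 11 of them fell at 23DIV. Kcnip2, a subunit of Kv4 channels, fell from 107, 184 and 179 CPM to 35 and 41.5 CPM at 23DIV, with 25.1, 23.3 and 24.4 CPM at rest and 16.7, 36.8 and 16.8 CPM after stimulation at 7DIV. The stimulated 23DIV libraries thus came down close to the level of 7DIV, and the stage difference was −2.0 ± 0.48 (log2, SE, edgeR adjusted p = 0.0142). Kcnh3, an ether-à-go-go-like channel, had a difference of −1.82 ± 0.42, Kcnn2, a calcium-activated channel, one of −1.88 ± 0.49, and Kcns2, a modifier of Kv2 channels, one of −1.47 ± 0.36. Kcnv1 (−1.53 ± 0.42), another modifier of Kv2 channels, and Kcnj10 were the remaining members. Kcnj10 is a glial channel described below. Over all 47 channels 0 were called without 23DIV stimulated replicate 2, between 4 and 9 without each other library, and 10 without a filter.

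Postsynaptic scaffolds and kinases had 5 negative and 0 positive calls among 27, with a median of −0.42, and 9 fell at 23DIV. Dlgap3, which links PSD-95 to Shank proteins, fell from 144, 196 and 205 CPM to 59.5 and 83.6 CPM at 23DIV, whereas 7DIV libraries held 61.6, 65.7 and 73.2 CPM at rest and 77.9, 72.8 and 90.3 CPM after stimulation. Its difference was −1.61 ± 0.29 (log2, SE, edgeR adjusted p = 0.00145) and was called in all 11 fits with a library left out. Nrgn, neurogranin, a calmodulin-binding protein, fell from 1564, 3028 and 3631 CPM to 819 and 929 CPM at 23DIV (ratio 0.319) and lay between 246 and 367 CPM at 7DIV. Camk4 (−1.30 ± 0.29), Camk2b (−0.83 ± 0.19) and Dlgap4 (−0.74 ± 0.20), 2 calmodulin kinases and a scaffold, completed the group. It held 3 negative calls without either 23DIV stimulated library or 23DIV basal replicate 2 or 3, and 1 positive call as well without 23DIV stimulated replicate 2.

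Among GABA genes the calls went in both directions, 2 positive and 2 negative of 22 tested. Gabra5, a subunit of extrasynaptic receptors, fell from 262, 421 and 394 CPM to 148 and 151 CPM at 23DIV, and stood at 447, 514 and 417 CPM at rest and 446, 398 and 463 CPM after stimulation at 7DIV (difference −1.19 ± 0.26, edgeR adjusted p = 0.00809). Stimulated 23DIV libraries lay below all others for this gene. Glutamate receptor genes had 2 negative calls of 27, Grm7 (−1.28 ± 0.33) and the AMPA receptor auxiliary gene Cnih2 (−0.83 ± 0.20), and 5 fell at 23DIV. When Grm7 was summed over its transcripts the difference was 0.40, with the opposite sign and without a call. Without 23DIV stimulated replicate 2 the GABA list held 1 positive and 0 negative calls and the glutamate receptor list 0, and without several other libraries each held 1 call fewer in a direction.

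Genes of immature neurons were mostly lower at 23DIV than at 7DIV, 22 of 24 at rest and 22 after stimulation. Of the 24, 7 were called with a negative stage difference and 0 with a positive one. The list as a whole was split, with 11 differences above 0 and 13 below. Its median was −0.09, beside −0.02 over all genes tested. Tubb3, the neuronal tubulin, measured 513, 424 and 523 CPM at rest and 227 and 243 CPM after stimulation at 23DIV, against 1403, 1500 and 1755 CPM and 1657, 1477 and 1849 CPM at 7DIV. For Tubb3, stimulation at 23DIV thus went further in the direction of the change with age (difference −1.15 ± 0.22, log2, SE, edgeR adjusted p = 0.00228). Marcksl1 (−0.95 ± 0.16), Tuba1a (−0.66 ± 0.14), Nnat (−0.67 ± 0.16), Neurod1 (−1.32 ± 0.38), Neurod6 (−0.76 ± 0.20) and Dcx (−0.62 ± 0.18) were the other members called. DESeq2 called 3 positive and 7 negative members. The negative count was 3 without 23DIV stimulated replicate 2 and 4 without 23DIV basal replicate 3 or 7DIV basal replicate 2. In the cholesterol list 3 of 23 were called negative, among them Fdps (−1.43 ± 0.30) and Nsdhl (−0.89 ± 0.23), enzymes of sterol synthesis. Under the 9 alternative settings that kept every library, negative calls ran from 2 to 5. Sodium and calcium channels had 1 negative call of 22 (Cacnb3), presynaptic release genes 1 positive and 1 negative of 29 (Slc17a6 and Cplx2), neurofilaments 1 positive of 7 (Nefl), and matrix genes 1 positive of 10. The last was Adamts1, a protease of matrix proteoglycans, with 102 and 71.1 CPM after stimulation and 9.69, 8.41 and 7.97 CPM at rest at 23DIV (difference 3.59 ± 0.47, edgeR adjusted p = 3e-05). Axon guidance, Notch and clock genes had 0 calls among 35, 11 and 18 tested. Over all genes tested 4.94% were called, so lists of this size would hold few calls in any case. These counts, and those of the sodium and calcium channel and presynaptic lists, say little about the families. Slc17a6, Nefl and Hsp90b1 were called in 3, 6 and 5 of the 11 fits with a library left out, and Cacnb3 in 10, all but that without 23DIV stimulated replicate 2.

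Markers and channels of glia were followed on the negative side. Gfap, the intermediate filament of astrocytes (chr11:102887336-102897200), measured 88.7, 137 and 64.3 CPM at rest and 11.8 and 33.1 CPM after stimulation at 23DIV. At 7DIV it was low in all libraries, at 7.58, 7.98 and 13.3 CPM at rest and 17.4, 8.6 and 13.6 CPM after stimulation. The stage difference was −2.51 ± 0.59 (log2, SE, edgeR adjusted p = 0.0124). Kcnj10, the astrocytic potassium channel Kir4.1 (chr1:172341210-172374085), fell at 23DIV from 88.4, 205 and 137 CPM to 14.7 and 47.2 CPM and lay between 11.7 and 33.6 CPM at 7DIV (difference −2.62 ± 0.62). Olig1, a transcription factor of the oligodendrocyte lineage (chr16:91269769-91271939), fell from 580, 551 and 581 CPM to 109 and 224 CPM at 23DIV. It measured 138, 93.9 and 129 CPM at rest and 172, 122 and 164 CPM after stimulation at 7DIV, and the difference of −2.12 ± 0.30 (log2, SE, edgeR adjusted p = 7.85e-05) was called in all 11 fits with a library left out. Stimulated 23DIV libraries overlapped those of 7DIV for all these genes, and resting 23DIV libraries lay above every other library.

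Summed over 10 astrocyte markers, resting 23DIV libraries held between 4652 and 5677 CPM and stimulated ones 1763 and 3390 CPM in replicates 2 and 3, beside 588 to 863 CPM at rest and 708 to 1058 CPM after stimulation at 7DIV. All 10 differences were below 0 (median −0.94), and 2 were called, Gfap and Aldoc. The 11 oligodendrocyte lineage markers summed to between 2520 and 3322 CPM at rest and to 1185 and 1789 CPM after stimulation at 23DIV, and to 474 to 959 CPM at 7DIV. Of the 10 tested, 4 were called negative (Olig1, Olig2, Cnp and Pdgfra), and 3 had a difference above 0 without a call (highest 2.12). By the response test at 23DIV 4 of the 10 fell and 2 rose. Cycling progenitor markers (2 negative calls of 9, Mki67 and Sox2) summed to between 480 and 603 CPM at rest and to 225 and 407 CPM after stimulation at 23DIV. Neuronal markers summed to between 5340 and 6274 CPM at rest and to 4914 and 4719 CPM after stimulation, with 1 positive and 2 negative calls of 10. Microglial markers summed to at most 20.6 CPM in any library, and vascular, meningeal and choroid plexus markers to at most 83.5 CPM. Only 3 of 8 and 3 of 10 of these were tested, with 0 calls in either list. At 23DIV the microglial sums were higher after stimulation, at 19.9 and 20.6 CPM against 4.29 to 9.34 CPM at rest. By the response test at 23DIV 2 of the 3 microglial markers rose. At 7DIV Gjb6, an astrocyte marker, was at 0 in all 6 libraries. The astrocyte and oligodendrocyte lineage sums were lower after stimulation at 23DIV, as 239 of the 277 negative genes were by the response test. The part of these 2 glial sums in the negative differences was not tested. The lower astrocyte and oligodendrocyte lineage values were those of replicate 2 of the stimulated 23DIV group. Without it, 0 of the astrocyte and 1 of the oligodendrocyte lineage markers were called, and without replicate 3, 4 and 4 were. Oligodendrocyte lineage calls numbered 2 without 23DIV basal replicate 2, 7DIV stimulated replicate 3 or 7DIV basal replicate 3. The calls of neuronal and cycling progenitor markers changed with most libraries left out.

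The leading negative genes other than Gfap were on no marker list. A2m, the protease inhibitor alpha-2-macroglobulin (chr6:121636165-121679238), had the most negative difference of the named genes (−3.74 ± 0.86), with 25.8, 53.8 and 38.3 CPM at rest and 3.69 and 9.5 CPM after stimulation at 23DIV, and 3.32, 3.68 and 5.42 CPM and 14, 6.45 and 7.85 CPM at 7DIV. Tgm3, a transglutaminase (chr2:129987794-130050399), fell at 23DIV from 75.1, 237 and 154 CPM to 23.2 and 14.9 CPM (ratio 0.125) and lay between 19.4 and 45 CPM at 7DIV (difference −3.50 ± 0.65, edgeR adjusted p = 0.00179). Frzb, a secreted Wnt antagonist, Tril, a Toll-like receptor accessory protein, Synpo, an actin-binding protein of dendritic spines, and Ipcef1, Tmem255b, Sardh, H3c15 and 4930429B21Rik completed the 12 most negative. H3c15, a histone, measured 4.24 and 2.17 CPM in stimulated 23DIV libraries, below every 7DIV library (8.40 to 17.5 CPM). Sardh was not called in the response at 23DIV (−0.75 ± 0.33), and its values at 7DIV were 0.948, 1.84 and 1.63 CPM at rest and 4.1, 4.61 and 5.71 CPM after stimulation. On the positive side the largest difference was that of Emp1, an epithelial membrane protein (chr6:135362550-135383173), with 4.15, 0 and 1.22 CPM at rest and 55.3 and 33.1 CPM after stimulation at 23DIV, and between 8.93 and 12.9 CPM in all 7DIV libraries (4.77 ± 1.09, edgeR adjusted p = 0.0108). Pdlim1 (3.45 ± 0.58), Pim1 (3.32 ± 0.76), Car12 (3.24 ± 0.79) and Klf4 (3.55 ± 0.88) completed the 12 most positive with those given above.

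**Figure D4:**
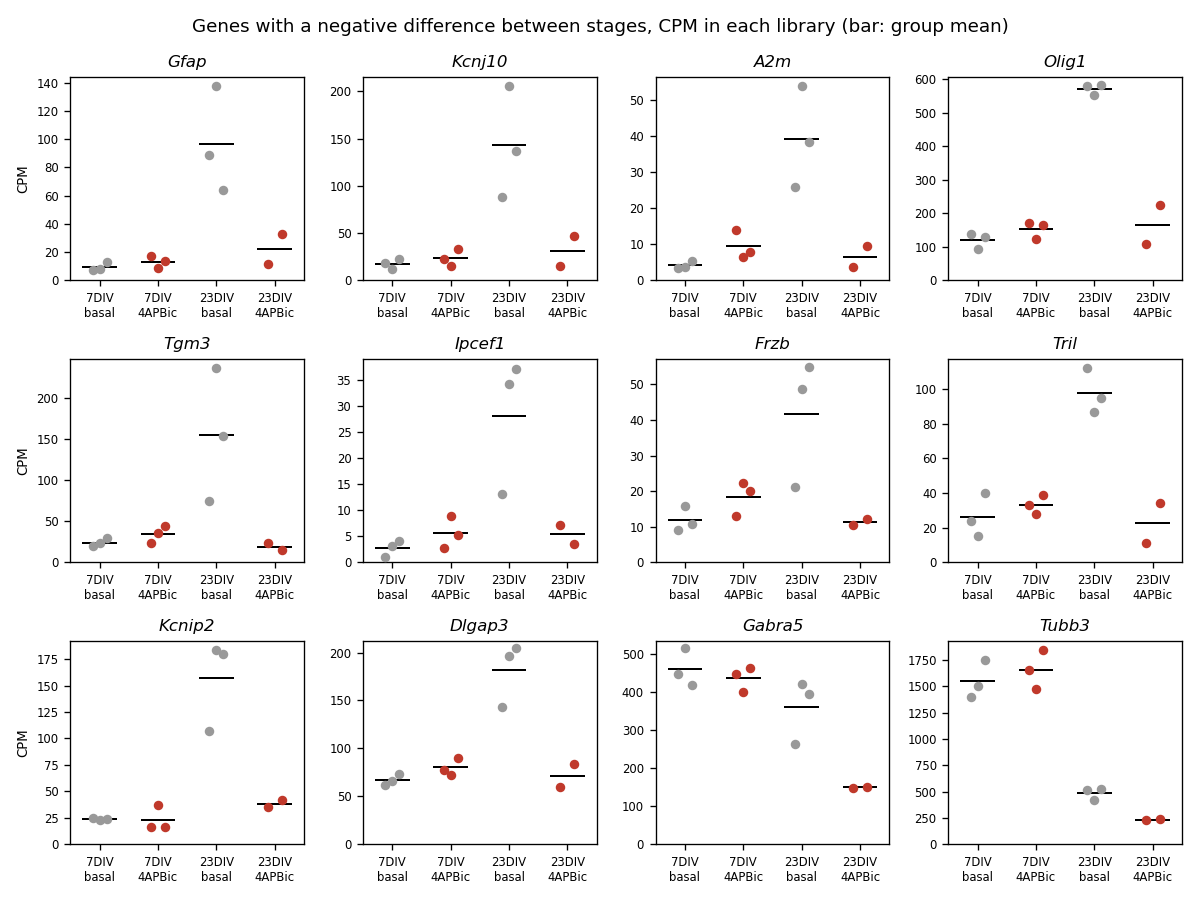
CPM of 12 genes with a negative stage difference in each of the 11 libraries, with basal libraries in grey, stimulated libraries in red and a bar at each group mean. In 10 panels the mean of resting 23DIV libraries is the highest and stimulated 23DIV libraries are near those of 7DIV, while the means of Gabra5 and Tubb3 are highest at 7DIV and lowest in stimulated 23DIV cultures.

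The 580 genes differed in whether the stages were called different at rest, after stimulation or both, and 34 of them (16 positive and 18 negative) were called at neither time. Of the 303 positive genes, 113 were lower at rest at 23DIV than at 7DIV, 50 higher and 140 not called (background over all genes 14.8% lower and 16.8% higher). After stimulation 191 of the 303 were higher at 23DIV and 17 lower (background 19.6% and 16.6%). For 79 genes the stages were called different only at rest, where 23DIV was lower, 124 were called higher only after stimulation, and 17, Fos, Fosb and Npas4 among them, changed from lower to higher. Of the 277 negative genes, 95 were higher at rest at 23DIV, and 69 of these were called at rest only, Gfap, Kcnj10, A2m and Olig1 among them. Another 118 were called only after stimulation, where they were lower at 23DIV, and 46 were lower at 23DIV both times, as Tubb3 was. These counts share their libraries with the stage difference itself and describe it.

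Few stage differences were called early, and the change from 15 to 180 min was not tested. After 15 min of 4APBic, with n = 3 at 7DIV, n = 2 at 23DIV and the same basal libraries, edgeR called 1 gene, Junb (0.00852% of genes tested, 587 genes at an unadjusted p under 0.05), with 98.8 and 83.5 CPM at 23DIV and 27.5, 42.6 and 29.2 CPM at 7DIV. The stage difference of Junb at that time was 2.06 ± 0.34 (log2, SE, edgeR adjusted p = 0.0171). DESeq2 called 5 genes and the likelihood ratio test 7. Values for Fos (2.02 ± 0.44), Fosb (2.87 ± 0.58), Npas4 (1.65 ± 0.45) and Arc (1.77 ± 0.56) did not pass. Arc had reached 374 and 298 CPM at 23DIV by then, overlapping its values at 180 min, and stayed at 24.7, 26.8 and 21.4 CPM at 7DIV.

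Whether the stage difference with 4APBic differed from that with another stimulus was tested with 55 mM KCl, which depolarizes neurons without need of synapses, in cultures of both ages (n = 3 each, 180 min). In this contrast the basal libraries cancel, and it was called for 103 genes (0.877% of genes tested), with 55 higher (0.468%) and 48 lower (0.409%). Of these, 48 were also among the 580 genes, which is 46.6% of the 103 and 8.28% of the 580, and both contrasts use the 4APBic libraries. Fos had 288, 268 and 314 CPM after KCl at 7DIV and 72.2, 195 and 223 CPM at 23DIV. By level, KCl libraries were thus higher at 7DIV where 4APBic libraries were higher at 23DIV. Levels are not responses, since resting Fos was 64.4, 71.2 and 77.2 CPM at 7DIV and 21.6, 11.3 and 12.1 CPM at 23DIV. KCl libraries lay above the resting ones at both ages, so the levels do not show a larger response at 7DIV. The 4APBic difference exceeded that of KCl by 2.21 ± 0.39 for Fos (log2, SE, edgeR adjusted p = 0.00344), 3.45 ± 0.31 for Junb, 3.60 ± 0.49 for Fosb, 2.96 ± 0.44 for Npas4 and 3.28 ± 0.32 for Egr1. On the early-response list 14 of 32 were higher and 0 lower in this contrast. Arc (0.59 ± 0.57), Gfap (−1.47 ± 0.57), Scg2 (0.89 ± 0.24) and Slc2a1 (0.21 ± 0.42) did not pass. The 103 genes became 22 without 23DIV stimulated replicate 2, 51 without 23DIV KCl replicate 1, 55 and 67 without 7DIV KCl replicates 2 and 3, and 64 without 7DIV stimulated replicate 3. Replicate 1 of KCl at 23DIV stood apart, with the lowest Fos (72.2 CPM) and the highest Gfap (95.6 CPM) of its group.

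A separate experiment gave bicuculline at 50 μM without 4-aminopyridine to 21DIV cultures, with basal cultures of its own (n = 3) and 2 libraries after 45 and 2 after 180 min (2383066 to 3907556 counts on genes). The drug mix, the experiment and the age differ from those above, so values are set side by side and not tested against each other. At 180 min edgeR called 92 of 12022 genes, 83 higher (0.690%) and 9 lower (0.0749%). Of the 303 positive genes 299 were tested there, and 42 rose (14.0%), beside 83 of the 11284 genes tested in both experiments (0.736%). Of the 271 negative genes tested 0 rose and 1 fell (0.369%, beside 0.0798%), and their median log2 fold change was 0.04. Npas4 went from 81.4, 67.4 and 58 CPM to 647 and 567 CPM, Fos from 37.6, 48 and 51.2 CPM to 225 and 213 CPM, and Atf3 from 38.1, 60 and 47.4 CPM to 309 and 258 CPM. Induction of the early factors thus appeared in libraries that the stage difference did not use, whereas Gfap, Kcnj10, A2m and Olig1 had log2 fold changes of 0.41, 0.12, 0.15 and 0.06 there and no call. Gfap measured 102, 195 and 83 CPM at rest and 161 and 175 CPM after 180 min of bicuculline, and the astrocyte markers summed to between 2622 and 3224 CPM and to 3456 and 3110 CPM. Scg2, Scg3 and Vgf, which rose with 4APBic, had no call here, with Scg2 at 1065, 1062 and 761 CPM at rest and 1157 and 1274 CPM (0.34 ± 0.14, edgeR adjusted p = 0.441). Of the early-response list 19 of 32 rose and of the effectors 12 of 29.

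After 45 min of bicuculline alone 899 of 12022 genes were called (7.48%), 543 higher (4.52%) and 356 lower (2.96%), against the same 3 basal libraries. The count was 396 without stimulated replicate 2 and 589 without basal replicate 5. Among the 299 positive genes 46 rose (15.4%) and 34 fell (11.4%), beside 4.71% and 3.12% of the 11284 genes tested in both experiments. Among the 271 negative genes 49 rose (18.1%) and 0 fell. Their median log2 fold change was 0.27, and that of the positive genes was −0.17. Gfap reached 536 and 345 CPM at this time, above all 3 basal libraries, a log2 fold change of 1.80 ± 0.22 (SE, edgeR adjusted p = 3.27e-07). Olig1 was also higher (0.98 ± 0.19, edgeR adjusted p = 0.000408), and Scg3 was lower (−1.01 ± 0.15, edgeR adjusted p = 6.13e-06). For these genes the sign was opposite to that of the 23DIV response to 4APBic at 180 min.

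**Figure D5:**
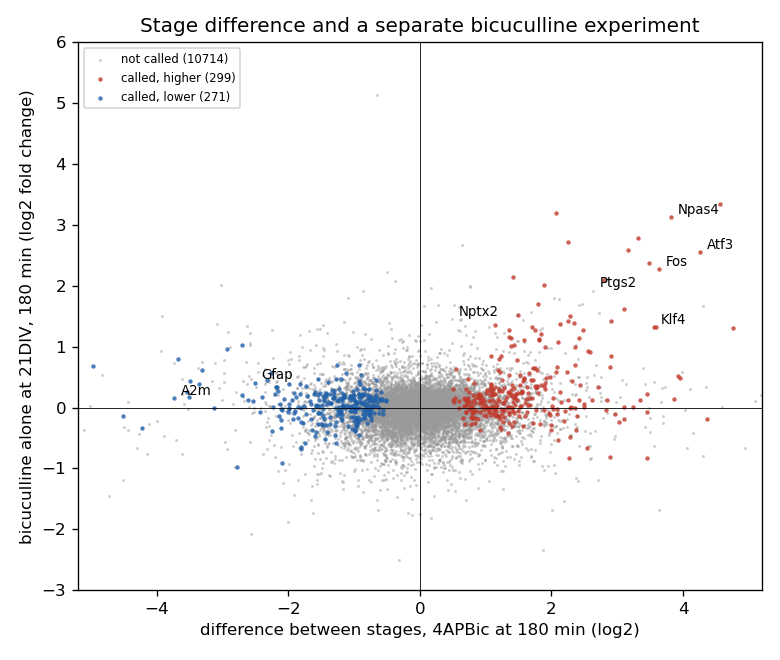
Stage difference in the response to 4APBic (x axis, log2) and log2 fold change after 180 min of bicuculline alone at 21DIV (y axis) for 11284 genes tested in both experiments, of which 20 lie outside the axes. Red and blue points are 299 positive and 271 negative genes. Part of the red points lie above 1 on the y axis, and the blue points scatter around 0.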

How the data were processed

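The authors aligned CEL-Seq2 reads to mm10 with STAR and counted 3′ ends per RefSeq transcript with the End Sequence Analysis Toolkit. They deposited whole-number counts, without normalization, and whether molecular identifiers were collapsed is not given in the sources used here. Of 97700 transcripts, 78897 (80.8%) matched a RefSeq gene symbol of GRCm38.p6 by accession, and 18.5% of counts were not used. In the stimuli experiment 78221 of 96722 transcripts (80.9%) matched. The most highly counted transcript stood for its gene. Genes were kept if 2 or more libraries exceeded 5 CPM, normalized by TMM and tested by the quasi-likelihood test of edgeR 4.0.16 (R 4.3.3) with Benjamini-Hochberg adjustment, in 1 fit over all 28 libraries (27 for the stimuli experiment). Stage differences were called at an adjusted p under 0.05, and other contrasts also needed 1.5-fold. SE were derived from the F statistic. CPM in the text are TMM-scaled. Alternatives were DESeq2 1.42.0, the likelihood ratio test, RLE size factors, other filters, thinned or summed counts, a fit on the compared groups, a replicate block and leaving out each library. Named genes were the 12 most positive and 12 most negative calls with average log2 CPM of at least 3 and no overlap of stimulated and basal libraries, up to 4 called members per direction of 27 gene lists, and 15 set activity genes. Uncalled list members and remaining called ones were chosen after their values were seen. The fits were tested on simulated data with known stage differences at 180 min. The quasi-likelihood test called 7.41% of 54 genes changed 1.5-fold, 20% of 70 changed 2-fold and 60.6% of 66 changed 4-fold. It called 0 in the wrong direction and 3 unchanged genes. Many true differences were thus missed, and a gene without a call may still differ between the stages. The comparison and the lists were chosen with earlier results of these data known. Figures used matplotlib 3.10.9. Some called genes are not reported here.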

Additional observations from a re-analysis of the deposited data

Results flagged for a closer look

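3 results compare the response between groups and passed a test of the difference itself. The response to 4APBic at 180 min differed between 23DIV and 7DIV for 580 genes. At 15 min it differed for 1 gene, Junb. The stage difference itself differed between 4APBic and KCl at 180 min for 103 genes. None of the groups compared had the 4 samples that a test for single outlying values needs.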

How the results depend on the processing

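The count of 580 stage differences lay within 1.5 times under RLE size factors (601), DESeq2 (814), the likelihood ratio test (867), no filter (777), another filter (554), a fit on the 11 libraries (546), thinned counts (417), counts summed over transcripts (457) and an added 1.5-fold limit (569). With each of 11 libraries left out it ranged from 138 to 896, and the response at 23DIV from 672 to 1986 (672 without 23DIV stimulated replicate 2, 1072 and 1090 without basal replicates 2 and 3). Leaving out a stimulated 23DIV library leaves 1, which is then assumed to vary like the other groups. The contrast with KCl ranged from 22 to 130, and bicuculline alone at 45 min from 396 to 923 (396 without stimulated replicate 2, 589 without basal replicate 5). At 7DIV the likelihood ratio test called 2 genes, no filter 21 and summed counts 1. At 15 min the calls were 7 by the likelihood ratio test, 5 by DESeq2, 23 without a filter and 0 with summed counts. Against KCl they were 236 by the likelihood ratio test, 192 by DESeq2 and 269 without a filter. Bicuculline alone gave 55 calls with summed counts at 180 min, and 572 with thinned and 580 with summed counts at 45 min. Correlations of deviations between basal and stimulated libraries lay between −0.06 and 0.03, for shared and for other replicate numbers, so no pairing was seen. The check cannot decide whether pairs exist. At 23DIV the 2 stimulated libraries give mirrored values, and basal replicate 1 shares its number with neither. With the replicate number as a block, 301 stage differences were called at 180 min and 3 at 15 min. Of 80 called genes named by rule, 22 kept the call in all 20 settings, 50 lost it without 23DIV stimulated replicate 2, and Grm7 reversed to 0.40 with summed counts. The causes were not tested. Leave-one-out fits of the KCl contrast, bicuculline at 45 min and counts of the gene lists under each setting were added after the data were seen. Counts limit genes under about 5 CPM, above all at 7DIV.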

Other observations

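Among the 48 genes whose stage difference was lower with 4APBic than with KCl were some outside the 580 genes, chosen here after their values were seen. Trib3 and Chac1, targets of the ATF4 stress response, had log2 differences of −4.44 ± 0.87 and −1.55 ± 0.36 between the stimuli (SE, edgeR adjusted p = 0.00801 and 0.0302). Nefh, the heavy neurofilament subunit, had −2.05 ± 0.45 and Arntl, a core clock transcription factor, −1.55 ± 0.34 (edgeR adjusted p = 0.0201 and 0.0188). Kcns2 and Cplx2, which were among the 580, had −2.10 ± 0.38 and −0.89 ± 0.22 (edgeR adjusted p = 0.0037 and 0.0422). These values share the 4APBic libraries with the stage difference.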
